A study of Rattus norvegicus with 20 samples.

Results

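Carcinomas 6, 8, 11 and 15 were the 4 of 16 radiation-induced rat mammary carcinomas with the highest share of CpG island regions that were highly enriched for methylated DNA. They were chosen by these enrichment ratios, so enrichment differences between them and the other 12 carcinomas are described and not tested. All carcinomas were from female F1 hybrid rats of the Sprague-Dawley and Copenhagen strains, and the rats had received a whole-body dose of 4 Gy of 137Cs gamma rays (0.5 Gy per minute) when 7 weeks old. Both sets of carcinomas therefore share strain cross, sex and irradiation. Another 4 arrays held normal mammary gland of the same cross, and the labels do not say whether those rats were irradiated. The glands took no part in the contrast and served only to say which regions were low in normal tissue.

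CpG islands are short stretches rich in CpG dinucleotides that often lie at promoters and are mostly free of methylation in healthy tissue. In tumours some of them gain methylation, and in several human cancers a subset of tumours gains it at many islands together, a state called a CpG island methylator phenotype. A methyl-CpG-binding domain protein pulls down DNA fragments that carry several methylated CpGs, so a high ratio of pulled-down to input DNA marks a methylated stretch.

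On each two-colour array the pulled-down DNA of 1 tissue carried Cy5 and its input DNA carried Cy3, with the same dyes throughout. The value of a probe was log2 of Cy5 over Cy3 with the median of its array removed. The mean over a run of at least 3 probes starting at most 500 bases apart gave the value of a region. This gave 13556 regions, the median one holding 6 probes over 579 bases. Positions are those of rat build rn4. The files name no genes, so regions are given by position. Linear position expressed the unlogged ratio of a region on a scale set per array, where 0 was the commonest value of all regions and 1 was the commonest value among the highest 15%. A region under 0.2 in all 4 normal glands is called low, which held for 11026 regions, and a low region over 0.5 in a carcinoma is called gained there.

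The share of regions over 0.5 chose the 4, so the values that follow describe the choice and are not tested. It was 21.3% in carcinoma 6, 24.2% in carcinoma 8, 22.6% in carcinoma 11 and 25.4% in carcinoma 15. In the other 12 it ran from 12.9% to 20.2% with a median of 16.97%, and in the normal glands from 11.6% to 13.1%. Carcinoma 6 lay just inside the choice and carcinoma 16, at 20.2%, just outside it, so the 4 are the upper end of a graded series. Gained regions numbered 714, 1066, 874 and 1207 in carcinomas 6, 8, 11 and 15, which is 6.48%, 9.67%, 7.93% and 10.9% of low regions. The other 12 had between 13 and 608, with a median of 226, and carcinoma 16 again came next to the 4.

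The label of many gained islands depended in part on the scale. In log2 ratio, carcinomas 6, 8, 11 and 15 had 536, 1057, 349 and 531 low regions at least 1 above the highest normal gland. The other 12 had from 68 to 520, so here the sets overlapped: carcinomas 12 and 16, with 520 and 518, lay above carcinoma 11. The log2 range between the modes that define 0 and 1 differed between arrays. It was 3.41, 4.00, 2.86 and 2.59 in carcinomas 6, 8, 11 and 15, from 2.32 to 4.20 in the other 12, and from 4.33 to 6.46 in the normal glands. The part of this range in the counts of gained regions was not tested. Of the gained regions, 85.3% in carcinoma 6, 96.5% in carcinoma 8, 65.0% in carcinoma 11 and 73.7% in carcinoma 15 also had a log2 ratio above every normal gland. In the other 12 this share ran from 23.6% to 91.5%. Runs of only 1 or 2 probes, which the choice did not use although they come from the same DNA, showed the same order of sets. Gained runs numbered 139, 201, 161 and 225 in the 4 and between 8 and 102 in the other 12. These runs were placed with the same modes of each array as the regions, so their order is not independent of the scale. After loess within each array carcinoma 6, with 122 gained regions, was no longer above all of the 12, whose highest was 130.

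**Figure D1:**
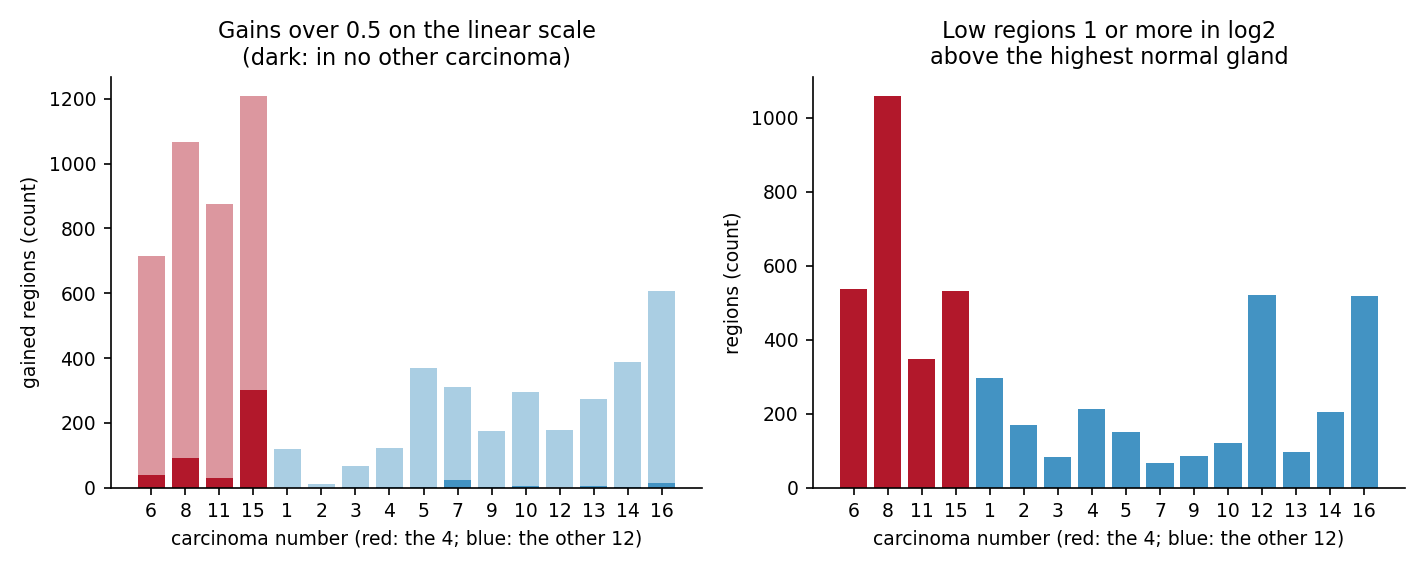
Gained regions in each carcinoma (left; dark bars are regions gained in no other carcinoma) and low regions at least 1 in log2 above the highest normal gland (right), as counts. Red bars are carcinomas 6, 8, 11 and 15 and blue bars the other 12; on the left all red bars stand above the highest blue bar, carcinoma 16 with 608, and on the right carcinoma 11 with 349 lies below carcinomas 12 and 16.

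Array facts bear on all of these values. Median raw signal was between 73.5 and 115 units for Cy5 and between 87.0 and 113.5 for Cy3 in the 4, and between 63.0 and 128.5 and between 73.0 and 129 in the other 12. The number of arrays limits the precision. The scan days in the file headers gave 3 days, the first with 2 of the other 12 only, the second with carcinomas 11 and 15 and the third with carcinomas 6 and 8. Carcinomas 11 and 15 also shared a slide. For carcinomas 7 and 8 the code in the label differs from that in the file name, so which tumour each file holds is uncertain. In bulk tissue, more cells with methylated islands and denser methylation per cell cannot be told apart. The tissue could not be checked against marker genes, as the arrays hold genomic DNA and no gene names. The labels name no animals, so any p-value measures only the spread between these samples.

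In 18 regions all 4 carcinomas lay above all 12 others and the means differed by at least 1 in log2 (0.133% of 13556). These 18 regions lay on 10 chromosomes, held between 3 and 28 probes and spanned between 225 and 3449 bases. Their differences ran from 1.01 to 1.84 with a median of 1.31, against a median of -0.05 over all regions. All 18 were low in the normal glands, and in 17 of them all 4 carcinomas also lay above every normal gland in log2 ratio. Without the fold criterion 30 regions were separated upwards (0.221%). Since the same ratios chose the 4, nothing is read from these shares. After loess within each array only 1 region met the criterion, and after normexp background correction 4 did. The count was 15 without carcinomas 7 and 8, whose codes disagree. It was 43, 62 and 43 without carcinoma 6, 11 or 15 and 41 and 60 without carcinoma 12 or 16, where fewer arrays had to be separated.

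The widest difference was on chromosome 17, in 6 probes at chr17:50118685-50119903. The log2 ratio was 2.24, 2.76, 1.53 and 1.27 in carcinomas 6, 8, 11 and 15. In the other 12 it ran from -0.88 to 1.23 with a median of -0.04, and in the normal glands from -1.11 to 0.57. The sets came within 0.05 of each other, as carcinoma 12, the highest of the 12, lay just below carcinoma 15. The means were 1.95 ± 0.68 (SD, n = 4) and 0.11 ± 0.76 (SD, n = 12), a difference of 1.84. That difference was 1.71 after loess within each array and 0.53 after normexp background correction. Input signal there, relative to the normal glands, was -0.87, 0.23, -0.75 and -0.63 in carcinomas 6, 8, 11 and 15. Mean input of the 4 less that of the other 12 was 0.04, and the part of input in the ratio was not tested. On the linear scale only carcinomas 6 and 8 passed 0.5 here, with positions of 0.593 and 0.736, against 0.454 and 0.442 in carcinomas 11 and 15 and at most 0.271 in the other 12.

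At chr7:103626070-103626640, with 4 probes, the 4 carcinomas read 2.50, 3.10, 2.13 and 2.17. The other 12 ran from -0.08 to 1.99 with a median of 0.92, and the normal glands from -0.03 to 0.50. Carcinoma 12 was the nearest of the 12, and the means differed by 1.52. This region was gained in all 4 and in none of the 12, with positions from 0.733 to 0.992 in the 4 and at most 0.407 in the rest. At chr8:13282313-13282765, with 5 probes, the 4 read 1.78, 2.44, 1.67 and 2.10 against 0.09 to 1.32 in the other 12, a difference of 1.43. Input signal of carcinoma 15 was raised by 1.15 there, relative to the normal glands, against -0.55, 0.21 and -0.22 in carcinomas 6, 8 and 11, and the part of this in the ratio was not tested.

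Chromosome 4 held 3 of the 18 regions. The longest was chr4:82179270-82182718, with 28 probes, where the 4 read 1.85, 2.86, 1.89 and 2.16 and the other 12 ran from 0.07 to 1.67 with a median of 0.63, a difference of 1.42. This was the region in which the normal glands, at 0.84 to 1.97, overlapped the 4 in log2 ratio. On the linear scale the glands were at most 0.0882, while the 4 stood at 0.429, 0.796, 0.630 and 0.985 and the others at most at 0.320. At chr4:157892827-157893244, with 5 probes, the 4 read 2.24, 2.54, 1.92 and 2.04, above a range of -0.07 to 1.90 in the other 12, and the region was gained in all 4 and in none of the rest. Its difference was 1.38, with carcinoma 16 only 0.02 below carcinoma 11. The remaining chromosome 4 region, chr4:32649308-32649909, had the lower difference of 1.05.

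Chromosome 1 also held 3. At chr1:242423424-242424202, with 7 probes, values were 1.87, 2.84, 1.86 and 1.73 in the 4 and between -0.10 and 1.32 in the other 12, a difference of 1.36 with a gap of 0.41 between the sets. At chr1:129267010-129268119, with 11 probes, they were 2.18, 2.00, 1.60 and 2.09 against 0.07 to 1.33, again a difference of 1.36. Carcinoma 8 was not the highest there. At chr1:101298829-101299612, with 11 probes, they were 2.16, 3.01, 1.91 and 2.02 against -0.25 to 1.86, a difference of 1.23. That region was gained in all 4 and in 1 of the 12, carcinoma 13.

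In the other named regions carcinoma 8 again read highest. At chr8:49435497-49436105 the 4 read 2.45, 2.82, 2.00 and 2.00 against -0.07 to 1.91, a difference of 1.36. At chr2:180080446-180081175 they read 2.38, 3.11, 1.72 and 1.76 against -0.0013 to 1.68, a difference of 1.33. Both regions were gained in all 4, the first also in carcinoma 7 (linear position 0.525) and the second in none of the 12. In log2 ratio the lowest of the 4 exceeded the highest of the 12 by only 0.09 and 0.04. At chr10:61891765-61892280 the 4 read 1.86, 2.96, 1.83 and 2.12 against 0.37 to 1.69, a difference of 1.29. At chr3:156254267-156254491 they read 1.55, 2.61, 1.54 and 1.70 against 0.11 to 1.05, a difference of 1.24. The gap between the sets at that chromosome 3 region was 0.49, wider than in the other 11 named here.

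**Figure D2:**
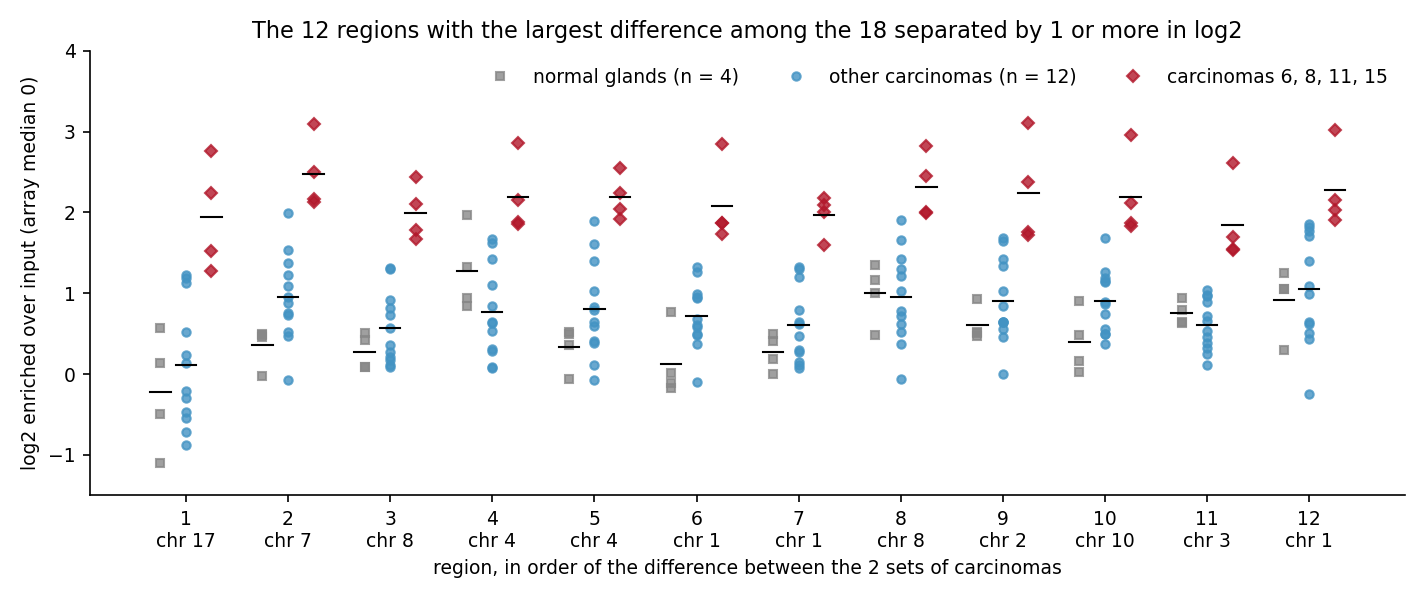
Log2 ratio of enriched over input DNA (array median 0) in the 12 regions with the largest difference among the 18 separated regions, 1 point per array, with black bars at the group means. Red diamonds are carcinomas 6, 8, 11 and 15, blue circles the other 12 and grey squares the 4 normal glands; every red point lies above every blue point of its region, the widest difference is 1.84 on chromosome 17, and only in the fourth region (28 probes, chromosome 4) does a grey point reach the red ones.

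Carcinoma 8 was the highest of the 4 in 16 of the 18 regions and carcinoma 6 in the other 2. The lowest of the 4 was carcinoma 11 in 9 regions, carcinoma 6 in 5 and carcinoma 15 in 4. On the side of the 12, the highest was carcinoma 12 in 9 regions and carcinoma 16 in 6, with carcinomas 5, 13 and 14 in 1 each. On the linear scale 5 of the 18 were gained in all 4, 16 in none of the 12, and 3 met both. Just inside the fold criterion stood chr15:42771473-42772007, chr17:14834011-14834898 and chr4:32649308-32649909, with differences of 1.01, 1.04 and 1.05. Just outside stood chr20:16044179-16045415, chr1:83838598-83839449 and chr9:74217740-74219051, with 0.98, 0.97 and 0.89.

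A difference of means of at least 1, without separation, was found in 275 regions (2.03%). Of these, 266, or 96.7%, were low in the normal glands, against 81.3% of all regions. Carcinoma 8 was the highest of the 4 in 249 of the 275. In 63 of them 1 of the 12 lay above the lowest of the 4, and in 86 regions 2 did. That carcinoma was most often number 16, which exceeded the lowest of the 4 in 221 of the 275, followed by number 12 in 186, number 14 in 89 and number 5 in 76. The remaining 8 did so in between 12 and 47. The means of carcinomas 6, 8, 11 and 15 thus differed from the rest at many more regions than their separate values did. The widest differences among regions that were not separated, named after their values were seen, were chr12:27252520-27253130, chr13:73644147-73644567 and chr2:39109129-39110161, with 1.75, 1.74 and 1.71. At the first, carcinoma 16 at 1.99 passed carcinoma 11 at 1.96. At the last, carcinoma 15 read 1.12 while carcinoma 12 read 2.80 and the normal glands reached 3.34, which on their wider range was a linear position of 0.172.

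Downward differences were small. In 7 regions all 4 lay below all 12 (0.0516%), with differences from -0.62 to -0.25, and 0 regions reached -1 with separation (0.0%) or in the difference of means alone (0.0%). Those 7 regions were also low in the normal glands, so they differ within the unenriched part of the range. The widest, named after its values were seen, was chr7:62961654-62961871, where the 4 read -1.08, -1.68, -0.99 and -0.95 and the 12 ran from -0.95 to -0.26. Of 1465 regions over 0.5 in every normal gland, the median difference was -0.02 and 0 differed by 1 or more in favour of the 4. Regions that fell from over 0.5 in all normal glands to under 0.2 numbered 12, 11, 4 and 2 in carcinomas 6, 8, 11 and 15 and between 0 and 24 in the other 12. Falls from a methylated state therefore did not separate the sets. The 338 regions on X, 172 of which were over 0.5 in every normal gland of these females, had a mean log2 ratio of 2.03 in the 4 and 2.04 in the 12.

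On the linear scale, with a difference of at least 0.25 in place of 1 in log2, 254 regions were higher in the 4 (1.87%) and 0 were lower (0.0%). They included 15 of the 18 regions above. The choice of the 18 fixes the sign of their difference within any scan day or slide, so the values there show only its size. On the second scan day (carcinomas 11 and 15 against 4 others) the differences ran from 0.50 to 1.34, and 6 of the 18 reached 1. On the third (carcinomas 6 and 8 against 6 others) they ran from 0.91 to 2.49, and 17 reached 1. On the 2 slides that held a carcinoma of each set they ran from 0.80 to 2.58 (carcinoma 6 less carcinoma 3) and from 1.43 to 2.96 (8 less 9).

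Gained regions overlapped widely among the 4. A total of 1659 low regions (15.0%) were gained in at least 1 of them: 589 in 1, 329 in 2, 350 in 3 and 391 in all 4. Carcinomas 8 and 11 shared 748 regions, 70.2% of the list of carcinoma 8 and 85.6% of that of carcinoma 11, and carcinomas 8 and 15 shared 739, 69.3% and 61.2%. Carcinomas 6 and 8 shared 563 (78.9% and 52.8%), 6 and 11 shared 514 (72.0% and 58.8%), 6 and 15 shared 522 (73.1% and 43.2%), and 11 and 15 shared 639 (73.1% and 52.9%). The pair on 1 slide, 11 and 15, was thus not the pair with the most in common. Over all regions, Pearson's r of log2 ratios between pairs of the 4 ran from 0.897 (6 and 15) to 0.956 (8 and 11), across regions, which share arrays and are not independent replicates.

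**Figure D3:**
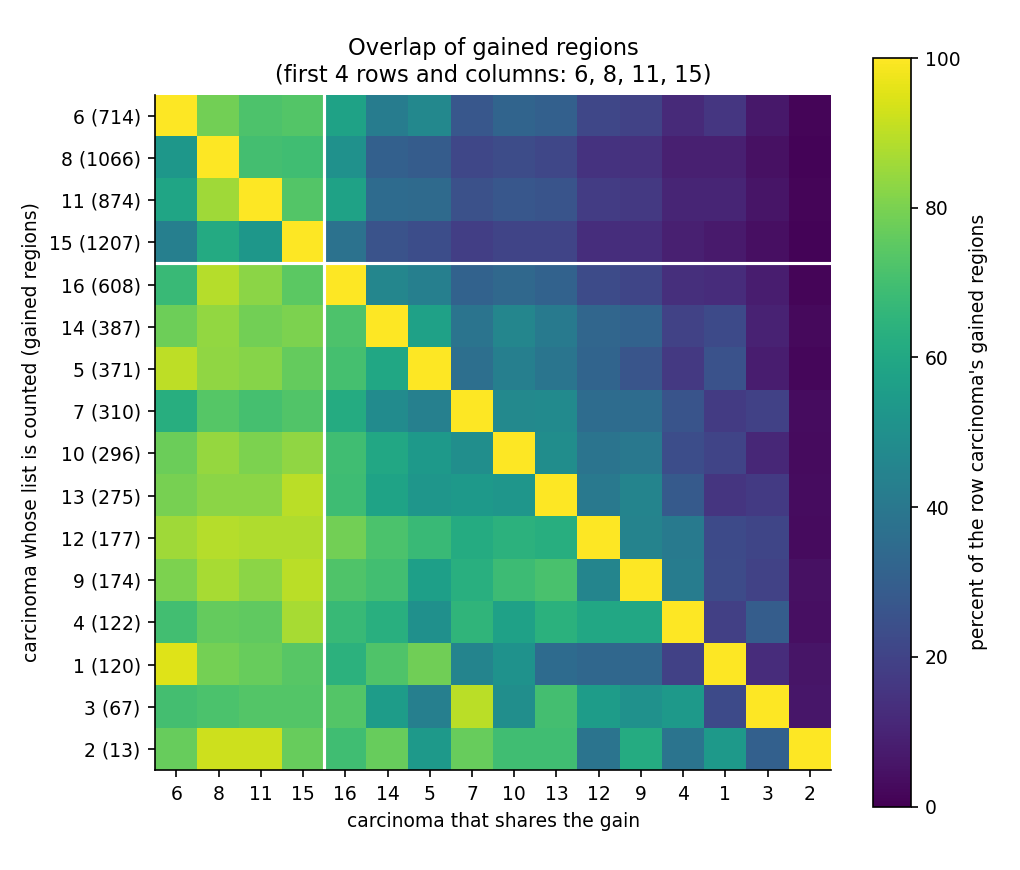
Overlap of the lists of gained regions of the 16 carcinomas. Each square gives the percent of the row carcinoma's gained regions that were also gained in the column carcinoma (list sizes in brackets, white lines set off carcinomas 6, 8, 11 and 15); the bright left columns show that the lists of the other carcinomas lie largely within those of the 4, and the reverse shares in the upper right are lower, and reach 57.6% of the list of carcinoma 6, 50.8% of that of 8, 57.4% of that of 11 and 37.6% of that of 15, each in carcinoma 16.

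Among regions gained in exactly 3 of the 4, carcinoma 6 was the one missing in 182, carcinoma 15 in 77, carcinoma 11 in 61 and carcinoma 8 in 30. Carcinomas 8 and 15 alone of the 4 held 105 regions and carcinomas 8 and 11 alone held 98, against 16 to 40 for the other 4 pairs. Carcinoma 8 was therefore present in most shared combinations, and carcinoma 6 in fewer. Regions gained in only 1 of the 4 numbered 65 for carcinoma 6, 118 for 8, 44 for 11 and 362 for 15, the last being 30.0% of that carcinoma's list against 5.03% to 11.1% for the rest.

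The lists of the other 12 lay mostly within those of the 4. Of 955 regions gained in any of the 12, 875 were gained in at least 1 of the 4, which is 91.6% of the list of the 12 and 52.7% of the list of the 4. Only 80 were held by the 12 alone, and 784 by the 4 alone. Per carcinoma of the 12, between 86.6% and 100% of gained regions were also gained in 1 of the 4 (median 97.5%), and between 47.4% and 68.9% in all 4. Of the 157 regions gained in at least 6 of the 12, 149 were gained in at least 3 of the 4 and 0 in none of them. Longer lists overlap more by their size alone, and no test of these overlaps was made.

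**Figure D4:**
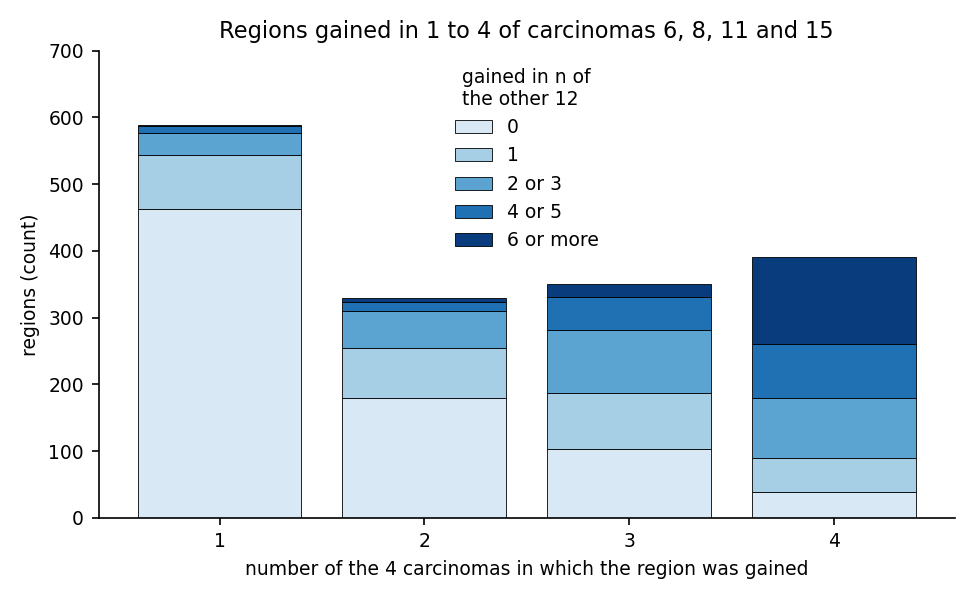
Low regions gained in 1, 2, 3 or all 4 of carcinomas 6, 8, 11 and 15 (count on the y axis), shaded by the number of the other 12 carcinomas in which they were gained. Of 589 regions held by 1 of the 4, 463 were in none of the 12, whereas of 391 held by all 4 only 38 were in none and 130 were in 6 or more.

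In 89 regions the gain was in all 4 and in at most 1 of the 12, 38 of them in none. The 89 became 206 when carcinoma 6 was left out, 104 without carcinomas 7 and 8, 30 after normexp and 7 after loess. The 5 with the most probes were long islands. At chr6:76917974-76920474, with 20 probes, linear positions were 0.520, 0.718, 0.645 and 0.609 in carcinomas 6, 8, 11 and 15, at most 0.475 in the 12 and at most 0.0313 in the normal glands. At chr16:82018532-82020363, also with 20 probes, they were 0.588, 0.813, 0.573 and 0.695, with carcinoma 16 just under the threshold. At chr4:67394709-67396913 (19 probes) the 4 stood between 0.732 and 0.909, at chr15:14350181-14351972 (19 probes) between 0.543 and 0.932, and at chr4:163014955-163016549 (18 probes) between 0.785 and 1.09. Each of these last 3 was gained in 1 of the 12, which was carcinoma 16 in the first 2 and carcinoma 5 in the last. Their log2 differences were 1.38, 1.10 and 1.33. In log2 ratio none of these 5 regions was separated, as the lowest of the 4 less the highest of the 12 ran from -0.63 to -0.0026. At chr6:76917974-76920474 carcinoma 12 read 2.08, against 1.92 and 1.61 in carcinomas 11 and 15. At chr15:14350181-14351972 carcinoma 16 read 2.44, above carcinomas 6, 11 and 15 at 2.13, 1.81 and 2.09. The median log2 difference of the 89 was 1.11, and in 73 of them (82.0%) all 4 lay above every normal gland. Among the 391 gained in all 4 this held for 190 (48.6%), and for the 130 that were also gained in at least 6 of the 12 the median difference between the sets was 0.54.

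Each of the 4 also held gains found in none of the other 15 carcinomas: 39 in carcinoma 6, 93 in 8, 29 in 11 and 302 in 15, against 0 to 24 in each of the other 12. Many in carcinoma 15 were far past the threshold, with a median position of 0.662 and 80 regions over 0.8, compared with 5, 15 and 0 over 0.8 in carcinomas 6, 8 and 11. Those of carcinoma 11 were close to it, with a median of 0.542, and the nearest other carcinoma had a median of 0.443 there. The 302 regions lay in 255 windows of 1 megabase with at most 4 in a window, so they were spread over the genome. Of the 93 in carcinoma 8, 14 lay on chromosome 10, in 10 different windows. They made up 1.47% of the low regions there, against 0.0% (chromosome 11) to 1.38% (chromosome 5) on the other autosomes. The most enriched of the 302 of carcinoma 15, named after its values were seen, was chr5:145520082-145520798 with a log2 ratio of 2.44 in carcinoma 15, at most 0.91 in the other 15 and at most 1.22 in the normal glands. The next by linear position, chr17:14286357-14287281, read 2.43 in carcinoma 15, but another carcinoma reached 2.37 in log2 without passing 0.5 on its own scale. Its input signal was raised by 0.40 in carcinoma 15 and by at most 0.13 in the others. After it came chr9:74659170-74660040, which read 2.39 against at most 0.42 in the others and 0.04 in the normal glands. Input signal there was raised by 0.51 in carcinoma 15 and by at most 0.40 in the others. In carcinoma 8 the most enriched region was chr10:77689919-77690485, at 3.17 against at most 1.80, and in carcinoma 6 chr15:66389337-66389873, at 2.72 against at most 1.74. For carcinoma 11 it was chr2:103270855-103271290, at 1.98, where another carcinoma reached 2.10 in log2 without passing 0.5 on its own scale.

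The highest r of carcinoma 15 with any other carcinoma was 0.918, whereas carcinomas 6, 8 and 11 reached 0.963, 0.962 and 0.962. For carcinomas 8 and 11 that nearest array was carcinoma 16 and for carcinoma 6 it was carcinoma 5, all among the 12. The 4 thus did not form a cluster of their own by correlation of all regions.

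Gains were more frequent where the normal glands already stood a little above 0. Among low regions with a mean position under 0.02 in the glands, 4.16% were gained in at least 1 of the 4, against 35.3% between 0.02 and 0.05, 69.2% between 0.05 and 0.1 and 77.2% between 0.1 and 0.15. In the single carcinomas of the 4 these shares ran from 0.873% to 2.51%, 12.6% to 25.8%, 38.6% to 55.0% and 54.9% to 59.5%. The other 12 had the same gradient, with median shares per carcinoma of 0.0598%, 2.54%, 14.4% and 30.2% of the same regions. Position depends on the log2 range between the modes of an array. That range was 4.33 to 6.46 in the glands, 2.59 to 4.00 in the 4 and 2.32 to 4.20 in the other 12. An unchanged log2 ratio can therefore take a higher position in a carcinoma than in a gland. The part of this in the gradient was not tested. The 89 regions gained in all 4 and in at most 1 other lay lower in the glands (median position 0.0407) than the 130 shared with at least 6 of the 12 (0.0894), and the median over all low regions was 0.00337. In each of the 4, gains were also more frequent where islands were sparse. In megabases with 1 to 5 regions, between 9.65% (carcinoma 6) and 15.6% (carcinoma 15) of low regions were gained in each of the 4, against between 4.78% (carcinoma 6) and 7.65% (carcinoma 8) in those with 21 or more. The median share in the other 12 was 1.97% and 1.67%. By length, 9.56%, 15.3%, 12.6% and 15.0% of regions with 12 to 19 probes were gained in carcinomas 6, 8, 11 and 15, against 6.32%, 9.39%, 8.36% and 11.0% of those with 8 to 11, and the median in the other 12 was 2.92% and 1.96%. Only 119 low regions had 20 or more probes. There 9.24%, 20.2%, 17.6% and 16.8% were gained in carcinomas 6, 8, 11 and 15, and the median in the other 12 was 0.420%. The share gained in all 4 was 3.36%, compared with 6.99% of those with 12 to 19. Regions with 3 or 4 probes, at 6.36%, 9.00%, 7.43% and 10.9% in carcinomas 6, 8, 11 and 15, were close to those with 8 to 11.

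Gained regions tended to have a near neighbour. Of the 391 gained in all 4, 47.1% had another region within 5000 bases, compared with 22.6% of low regions. Where that neighbour was low too, it was also gained in all 4 in 49 of 147 cases (33.3%), against 149 of 2130 (7.00%) over all low regions. A near neighbour was not particular to gains of the 4. Of the 80 regions gained in the 12 and none of the 4, 41.25% had another region within 5000 bases. Of the 18 separated regions 22.2% did. The 391 fell in 289 windows of 1 megabase, and 163 of them in 61 windows with at least 2. The fullest windows, named after their values were seen, were chr4:80000001-81000000 with 11 of 20 low regions gained in all 4, chr6:9000001-10000000 with 7 of 11, chr3:136000001-137000000 with 5 of 6, chr20:2000001-3000000 with 5 of 15 and chr3:156000001-157000000 with 5 of 17. In the first of these windows the other 12 had a median of 8 gained regions and in the second 4, so these clusters were common to most carcinomas. In the last, the other 12 had a median of 1. The 18 separated regions lay in 18 different windows, so no megabase held more than 1 of them.

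By chromosome, separated regions made up 0.450% of regions on chromosome 17 (2 of 444), 0.420% on chromosome 4 (3 of 715) and 0.281% on chromosome 8 (2 of 712), and none lay on 10 of the autosomes or on X. With so few regions these shares have no order beyond counting. The shares of low regions gained are given over the autosomes, as X held only 8 low regions. This share ran from 3.05% on chromosome 10 to 9.40% on chromosome 2 in carcinoma 6 and from 5.49% on chromosome 19 to 12.1% on chromosome 14 in carcinoma 8. In carcinoma 11 it ran from 5.15% on chromosome 10 to 11.8% on chromosome 6, and in carcinoma 15 from 6.20% on chromosome 10 to 16.6% on chromosome 17. Chromosome 10 was lowest in 3 of the 4, stood at 7.04% in carcinoma 8, and had a median of 0.998% in the other 12. Carcinoma 15 alone stood high on chromosome 17, where the other 3 had between 4.74% and 9.74%. Of its 302 own regions, 26 lay on chromosome 17, 6.84% of the low regions there, against 1.16% to 3.53% on the other autosomes, and they occupied 17 different megabases. Mean input signal on chromosome 17 was raised by 0.37 in log2 in carcinoma 15, against -0.48 to 0.08 in the other 12, and its part in these gains was not tested.

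**Figure D5:**
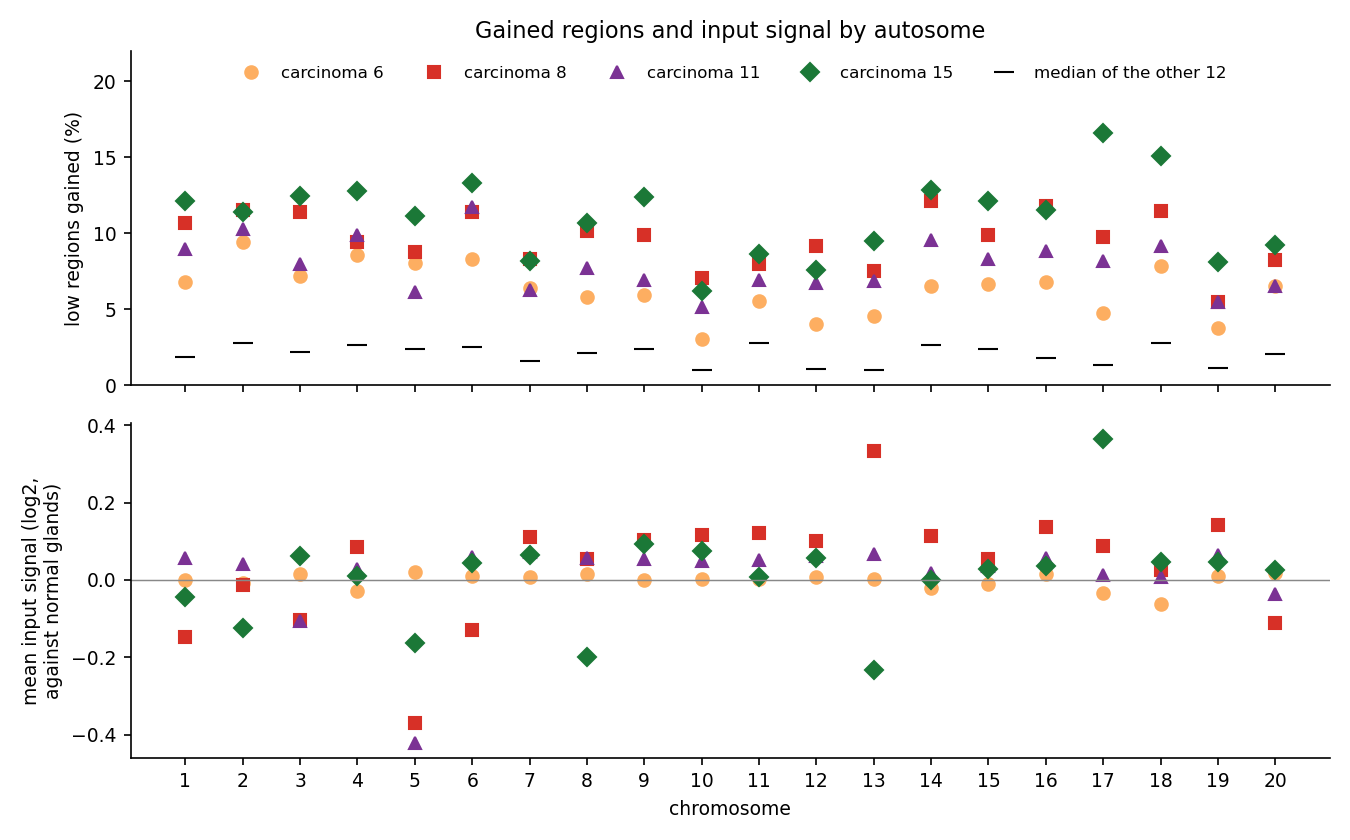
Percent of low regions gained on each autosome in carcinomas 6, 8, 11 and 15, with the median of the other 12 as a dash (top), and the mean log2 input signal of the same chromosomes relative to the normal glands (bottom). All 4 carcinomas lie above the dash on every autosome; carcinoma 15 stands out on chromosome 17 in both panels (16.6% and 0.37), and carcinomas 8 and 11 have low input on chromosome 5.

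Input DNA was not enriched and was not used by itself to choose the 4, but it is the denominator of the ratios that did. The tests of input that follow are therefore not fully independent of the choice. The unevenness of input was taken as the SD over autosomes of mean log2 Cy3 relative to the normal glands. It was 0.0206, 0.149, 0.111 and 0.129 in carcinomas 6, 8, 11 and 15. In the other 12 it ran from 0.0184 to 0.242 with a median of 0.0364, and carcinoma 3 lay above all 4. The means were 0.103 ± 0.0568 (SD, n = 4) and 0.0645 ± 0.0649 (SD, n = 12), and the difference of 0.0381 was not beyond the spread (two-sided exact permutation test over 1820 divisions, p = 0.357, the smallest possible being 0.000549). The size of the difference rested on single arrays. It was 0.0542 without carcinoma 3 (exact permutation p = 0.0630), 0.0654 without carcinoma 6 (exact permutation p = 0.180) and 0.0224 without carcinoma 8 (exact permutation p = 0.567). Within the second scan day it was 0.0462 (exact permutation p = 0.267) and within the third 0.0142 (exact permutation p = 0.857). On the 2 shared slides it ran in opposite directions, at 0.0206 in carcinoma 6 and 0.242 in carcinoma 3, and at 0.149 in carcinoma 8 and 0.0253 in carcinoma 9.

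Tested region by region, 0 of 13556 regions were higher in input signal (0.0%) and 0 lower (0.0%) at a limma adjusted p under 0.05, with 581 at an unadjusted p under 0.05 and a smallest adjusted p of 0.597. Input differences of the 18 separated regions ran from -0.11 to 0.27 in log2, against ratio differences of 1.01 to 1.84, and none of the 18 was called. These are differences of set means, and single arrays went further, as with 1.15 in carcinoma 15 at chr8:13282313-13282765. The part of input in the ratios of single regions was not tested. With slide as a random block, an alternative chosen after seeing the data, limma again called 0, with 1318 at an unadjusted p under 0.05 and a smallest adjusted p of 0.396. The result rested on carcinoma 6: without it limma called 117 regions, all but 1 of them on chromosome 5 and lower in carcinomas 8, 11 and 15. Over those 116 chromosome 5 regions mean input was -0.50, -0.51 and -0.65 in these 3 and -0.02 in carcinoma 6, and in the other 12 it ran from -0.35, in carcinoma 16, to 0.04. None of the 18 separated regions was among them or elsewhere on chromosome 5. Over the whole of chromosome 5 input was -0.37, -0.42 and -0.16 in carcinomas 8, 11 and 15 and -0.37 in carcinoma 16, and gained regions made up 8.76%, 6.13% and 11.1% of its low regions in the first 3, within the range of their other autosomes. On X, input of carcinoma 8 was -0.49, below all others of the 16.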

How the data were processed

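Each tissue was measured on 1 two-colour Agilent CpG island array. Per the file headers, Feature Extraction 10.7.3.1 made the processed intensities, by subtracting background and scaling each dye linearly, and the deposited log10 ratio of Cy5 over Cy3. The authors' value table holds 91897 probes as log2 ratios, not centred, and was an alternative.

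Here log2 of the processed signals was taken, 1565 control spots were left out, 187 values marked as outliers were set to missing, and probes whose input was well above background on fewer than 10 arrays were dropped, which left 91599. No loess or quantile step was applied. Input was tested with limma 3.58.1 (R 4.3.3, Benjamini-Hochberg) and exact permutation, using Python 3.11.15, scipy 1.17.1, numpy 2.4.6 and pandas 2.3.3, and the fit was tested on simulated data.

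Named were the 12 largest differences among separated regions, the 5 regions with most probes among those gained in all 4 and at most 1 other, the extreme chromosomes and the 3 regions on either side of the fold criterion. The 4 carcinomas, regions, measures and rules were chosen with earlier results of these data known. Gene names and sequences were not used here, because the reference at hand is of another build.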

Additional observations from a re-analysis of the deposited data

Results flagged for a closer look

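Values of 1 array that stood far from the other 3 of its set were looked for in the per-array measures and in 37 regions. These regions were picked by a fixed rule or after their values were seen. The regions named as gained in 1 carcinoma alone were not among them. In all, 7 of 95 sets of 4 values met Dixon's criterion, where chance gives about 1 in 20. In carcinoma 8 the median raw Cy3 signal was 113.5 units, against 87.0 to 90.5 in carcinomas 6, 11 and 15. Its log2 ratio was 2.84 at chr1:242423424-242424202, where the other 3 lay between 1.73 and 1.87, and 2.61 at chr3:156254267-156254491, where they lay between 1.54 and 1.70. It was -0.31 at chr10:93616622-93617240, where they lay between -0.12 and -0.09. Among the normal glands, gland 3 read -0.026 at chr7:103626070-103626640 against 0.46 to 0.50 in the others. Gland 1 read 0.93 at chr2:180080446-180081175 against 0.47 to 0.52, and 1.73 at chr4:67394709-67396913 against 0.38 to 0.55.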

How the results depend on the processing

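The count of 18 separated regions depended strongly on the processing, and that of lower regions ran from 0 to 45. There were 1 higher after loess, 47 higher and 1 lower after quantile normalization, 4 higher after normexp correction, and 254 higher in linear position. Of the 18, 0 were called after loess, 8 after quantile and 2 after normexp. Setting the low mode of each array to 0 moved the median difference of all regions from -0.05 to 0.10 and called 17, of which 10 were among the 18. Relaxing the difference to 0.5 gave 29 higher and 2 lower, and 1.5 gave 2 higher. A limma adjusted p under 0.05 was 1 alternative criterion. On the ratios that chose the 4 it gave 15 higher and, with scan day as a block, 0 higher. The choice used those ratios, so these p-values are void as a test. Nothing is read from either count or from their contrast. Within scan day 2 there were 61 higher and 12 lower and within scan day 3 790 and 45, as fewer arrays have to be separated. Leaving out each of the 4 gave 15 to 62 higher (62 without carcinoma 11, 43 without 6 or 15) and 0 to 4 lower, and each of the 12 gave 15 to 60 higher (60 without carcinoma 16, 41 without 12). The differences of the 18 named regions ran from 0.39 to 2.49 over 500 recomputed values, and 34 moved by more than 1 SD, and their sign largely follows from how the 18 were chosen. The count of 89 regions gained in all 4 and at most 1 other fell to 7 after loess and 30 after normexp, and was 98 to 206 without 1 of the 4 (206 without carcinoma 6). Without 1 of the 12, an alternative chosen after seeing the data, it was 89 to 128. With a gain set at 0.4 or 0.6, chosen after seeing the data, the 4 stayed above all of the 12. With loess, gains numbered 122, 229, 180 and 310 in carcinomas 6, 8, 11 and 15 and at most 130 in the other 12. With normexp they numbered 671, 1091, 1160 and 1341 and at most 863, so in both carcinoma 6 was no longer above all others. Regions that differed in input stayed at 0, except for 117 without carcinoma 6 (range 0 to 117). Input unevenness kept its direction and its side of the threshold in all 21 alternatives (exact permutation p from 0.0630 to 0.857). The causes were not tested. No paired analysis was possible because the sets share no replicate number, and 2 slides held 1 carcinoma of each set. Signal over background, wide ranges between arrays and 4 arrays limit the rest.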
